A study of Mus musculus with 12 samples.

Results

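Matricellular proteins are secreted into the extracellular matrix but act less as scaffold than as signals between matrix, growth factors and cells. Most are scarce in resting connective tissue and appear with injury, load or inflammation, and in the joint they have been studied in synovium, cartilage, tendon and bone. They bind integrins, syndecans and other receptors, and several of them bind or activate TGF-beta or are themselves induced by it. The 10 genes described here, taken by symbol from the 32285 genes of the deposited matrices, cover the tenascin Tnc, the fasciclin-domain proteins Postn (periostin) and Tgfbi, the collagen triple helix repeat protein Cthrc1, the thrombospondins Thbs1, Thbs2 and Comp (thrombospondin 5), and the CCN proteins Ccn1, Ccn2 and Ccn3. All 10 were found once each, and their unique molecular identifiers (UMIs, 1 per captured transcript) were summed over 3325 fibroblasts.

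The cells were viable CD45- GR-1- cells sorted from ankle and wrist joints of R5 x R26tdTomato mice (genotype Il5 wt/Cre; R26 tdTom/tdTom, 8 to 10 weeks old), a strain in which Cre made from the Il5 locus marks cells that have expressed Il5; all groups carried it. Joints came from healthy mice, from mice with serum transfer arthritis (STA), in which injected serum sets off joint inflammation, and from mice with STA that also received Il23mc. In experiment 1 a single well held 1 hashtag each of healthy, STA and STA + Il23mc fibroblasts, and in experiment 2 a single well held 1 hashtag each of healthy, mild STA and severe STA fibroblasts. Cells of 4 animals were pooled per loading according to the labels, against 3 hashtags found here, so how many animals stand behind a hashtag is not known. The hashtag is the replicate. P-values therefore measure the spread between hashtags.

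All 10 are protein-coding genes, placed here on GRCm38 with GENCODE M21. Tnc (ENSMUSG00000028364) lies at chr4:63959785-64047015 on the minus strand, Postn (ENSMUSG00000027750) at chr3:54361109-54391037 on the plus strand, Tgfbi (ENSMUSG00000035493) at chr13:56609523-56639562 on the plus strand and Cthrc1 (ENSMUSG00000054196) at chr15:39076932-39087121 on the plus strand. Thbs1 (ENSMUSG00000040152) lies at chr2:118111876-118127133 on the plus strand, Thbs2 (ENSMUSG00000023885) at chr17:14665500-14694235 on the minus strand and Comp (ENSMUSG00000031849) at chr8:70373558-70382066 on the plus strand. Ccn1 (ENSMUSG00000028195) lies at chr3:145646976-145649981 on the minus strand, Ccn2 (ENSMUSG00000019997) at chr10:24595442-24598683 on the plus strand and Ccn3 (ENSMUSG00000037362) at chr15:54745702-54754039 on the plus strand. An annotated gene on the opposite strand overlaps Tnc (8030451A03Rik, 9 UMIs over the 6 hashtags), Thbs1 (Gm29233, 0 UMIs) and Ccn2 (Gm15270, 333 UMIs against 13059 for Ccn2). Whether the counting used strand is not given in the sources used here.

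Tnc, Postn and Thbs2 rose together in STA and Ccn1 is a rapidly induced member of the set, so the 250 bases before their RefSeq transcription starts (GRCm38.p6) are shown, each read 5′ to 3′ on the strand of the gene. The windows are chr4:64047016-64047265 (minus) for Tnc, chr3:54360857-54361106 (plus) for Postn, chr17:14694263-14694512 (minus) for Thbs2 and chr3:145649986-145650235 (minus) for Ccn1. Capitals mark matches to the motifs searched below.
Tnc: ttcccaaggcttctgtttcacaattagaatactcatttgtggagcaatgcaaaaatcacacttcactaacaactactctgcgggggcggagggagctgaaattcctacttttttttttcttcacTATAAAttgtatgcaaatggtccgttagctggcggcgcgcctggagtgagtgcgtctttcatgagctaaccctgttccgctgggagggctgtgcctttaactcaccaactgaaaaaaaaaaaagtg
Postn: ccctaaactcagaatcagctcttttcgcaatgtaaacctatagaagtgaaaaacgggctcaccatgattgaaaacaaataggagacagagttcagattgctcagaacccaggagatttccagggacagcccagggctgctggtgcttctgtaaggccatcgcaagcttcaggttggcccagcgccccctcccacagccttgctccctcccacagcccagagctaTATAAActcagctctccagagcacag
Thbs2: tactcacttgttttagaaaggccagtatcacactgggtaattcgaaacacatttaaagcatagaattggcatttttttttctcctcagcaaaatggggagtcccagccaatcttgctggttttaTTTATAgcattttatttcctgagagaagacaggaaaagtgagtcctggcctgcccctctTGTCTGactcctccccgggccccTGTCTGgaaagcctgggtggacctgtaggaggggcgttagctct
Ccn1: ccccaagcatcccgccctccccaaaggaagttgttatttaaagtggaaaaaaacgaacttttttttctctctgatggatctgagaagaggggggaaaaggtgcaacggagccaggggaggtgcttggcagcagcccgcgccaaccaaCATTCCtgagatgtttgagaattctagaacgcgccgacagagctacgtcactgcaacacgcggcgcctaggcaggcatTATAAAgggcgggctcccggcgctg
The motifs were searched on both strands, and a match describes letters only. TATAAA begins 26 bases before the start in Postn, 25 in Ccn1 and 126 in Tnc, and its reverse complement begins 126 bases before the start in Thbs2; 12.4% of 32851 RefSeq windows of the same length hold it in either direction. The TEAD motif CATTCC was found in Ccn1, 103 bases before the start, and is held by 12.6% of windows. The SMAD motif CAGACA was found in Thbs2 on the other strand, 67 and 44 bases before the start, and is held by 17.1%. The AP-1 motif TGAGTCA (4.46% of windows) and the CArG box (1.47%) were in none of the 4 windows, and no motif overlapped another.

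Depth was 3103104 to 17064647 UMIs per hashtag over the 268 to 953 cells of the 5 fibroblast classes that the authors named Mmp3+, Il6+, Pi16+, Lining and Cd200+. Median depth was 7558 UMIs per cell in healthy cells of experiment 1 and 10819 in those of experiment 2, and 14559 to 17545 in the 4 STA hashtags. Class shares moved with condition: Mmp3+ cells were 2.45 and 10.8% of healthy fibroblasts and 69.5, 49.1 and 40.6% of STA fibroblasts (experiment 1, mild, severe). Pi16+ cells were 50.2 and 47.0% of healthy and 8.48, 20.5 and 22.3% of STA fibroblasts. The genes behind the class names were mostly highest in their own class: the median Mmp3 level was highest in Mmp3+ (1475 UMIs per 1e6 UMIs, CPM), Il6 in Il6+ (1867 CPM), Pi16 in Pi16+ (1933 CPM) and Prg4, the lubricin gene, in Lining (59474 CPM), while Cd200 was higher in the class the authors named Osteoblasts (187 CPM) than in Cd200+ (103 CPM). The Osteoblasts class also held most Col2a1, the main cartilage collagen (6925 CPM), next to the bone gene Ibsp (6738 CPM). The class named Chondrocytes had a median of 25.5 CPM of Col2a1 (0 to 2171 CPM over hashtags) and 6258 CPM of Prg4. The cartilage gene Chad was highest there, with a median of 1995 CPM against 405 CPM in Osteoblasts. Median levels of Acan, Cnmd, Hapln1, Matn3, Sox9 and Snorc were higher in Osteoblasts than in Chondrocytes. In Chondrocytes they still lay above those of the 5 fibroblast classes. These 2 classes are called by the authors' names below and stay out of the fibroblast sums.

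**Figure D1:**
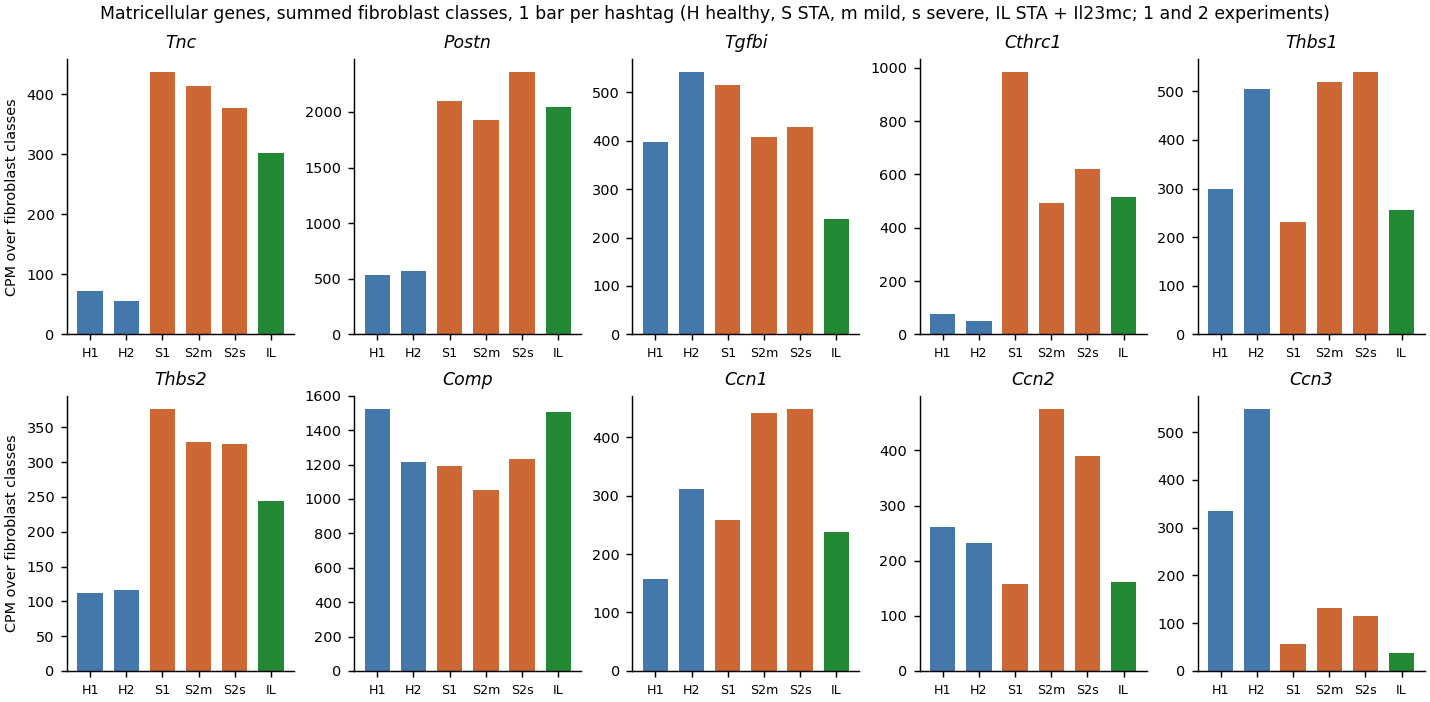
Level of each gene (CPM, linear axis from 0) summed over the 5 fibroblast classes, 1 bar per hashtag, so no error bar is drawn: blue for healthy, orange for STA and green for STA + Il23mc, with H for healthy, S for STA, m and s for mild and severe, IL for STA + Il23mc and the experiment number under the bars. Tnc, Postn, Cthrc1 and Thbs2 stand above both healthy bars in all 3 STA hashtags and Ccn3 below both, while Ccn2 is high only in the experiment 2 STA hashtags.

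Arthritic and healthy fibroblasts were compared first over all 5 classes. Tnc, Postn, Cthrc1, Thbs2 and Ccn1 rose in STA, by 0.62 to 3.62 on the log2 scale, and Ccn3 fell by 2.32. Tgfbi, Thbs1, Comp and Ccn2 did not pass the test. The 6 called members of 10 stand beside 20.3% of the 12200 genes tested in the same fit (edgeR quasi-likelihood test on 3 STA and 2 healthy hashtags with an experiment term, adjusted p under 0.05). By direction, 10.5% of all genes were called higher and 9.83% lower. The 3 STA hashtags lay apart from both healthy ones for 5 members, as for 43% of all genes.

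Tnc encodes tenascin-C, a large hexameric glycoprotein that in other settings signals through integrins and Toll-like receptor 4. It stood at 71.9 and 55.1 CPM in the healthy hashtags of experiments 1 and 2 and at 436, 413 and 376 CPM in the STA hashtags of experiment 1, mild and severe. The STA hashtags lay far above both healthy ones and close to one another. The log2 fold change was 2.75 (SE 0.129, adjusted p = 0.000498, edgeR).

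Postn encodes periostin, which helps assemble collagen and tenascin and promotes collagen crosslinking. Its levels were 533 and 571 CPM in healthy and 2099, 1926 and 2357 CPM in STA hashtags, again without overlap. The log2 fold change was 1.95 (SE 0.123, adjusted p = 0.000625, edgeR). Tgfbi, its paralogue, named for its induction by TGF-beta, stood at 398 and 542 CPM in healthy and 516, 408 and 428 CPM in STA hashtags. The groups overlapped and the log2 fold change was -0.04 (SE 0.177, adjusted p = 0.888, edgeR).

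Cthrc1 encodes a secreted glycoprotein known from injured arteries and activated fibroblasts, and it showed the largest change of the 10. It rose from 74.8 and 49.0 CPM to 984, 493 and 622 CPM. Even the lowest STA hashtag was several times above the higher healthy one. The log2 fold change was 3.62 (SE 0.160, adjusted p = 0.000434, edgeR).

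Of the thrombospondins, Thbs1 and Thbs2 are the trimeric members that bind CD47 and CD36, and Thbs1 also activates latent TGF-beta, whereas Comp is the pentameric member of cartilage and tendon. Thbs2 stood at 112 and 116 CPM in healthy and 377, 328 and 325 CPM in STA hashtags, with no overlap and a log2 fold change of 1.62 (SE 0.122, adjusted p = 0.00107, edgeR). Thbs1 stood at 299 and 505 CPM in healthy and 231, 520 and 539 CPM in STA hashtags. Both experiment 2 STA hashtags were close to their healthy partner and the experiment 1 STA hashtag was the lowest of all, with a log2 fold change of -0.10 (SE 0.125, adjusted p = 0.592, edgeR). Comp stood at 1524 and 1212 CPM in healthy and 1192, 1052 and 1233 CPM in STA hashtags. These ranges overlapped, and the log2 fold change was -0.18 (SE 0.114, adjusted p = 0.296, edgeR). Comp was called lower, by -0.78 (adjusted p = 0.00584, edgeR), when the Osteoblasts and Chondrocytes classes, which hold more of it, were added to the sums, and by -0.57 (adjusted p = 0.0153, limma) with each class weighted equally.

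The CCN proteins share a modular structure, and Ccn1 (Cyr61) and Ccn2 (connective tissue growth factor) are quickly induced by serum, TGF-beta and YAP/TAZ signalling, while Ccn3 (Nov) often opposes Ccn2. Ccn3 stood at 336 and 549 CPM in healthy and 56.0, 132 and 115 CPM in STA hashtags. Each STA hashtag was below both healthy ones, and the log2 fold change was -2.32 (SE 0.135, adjusted p = 0.000584, edgeR). Ccn1 stood at 158 and 311 CPM in healthy and 258, 441 and 448 CPM in STA hashtags. The groups overlapped because experiment 2 was higher throughout, and STA lay above healthy within each experiment. Its log2 fold change with the experiment term was 0.62 (SE 0.110, adjusted p = 0.0116, edgeR). The call ended without the healthy or without the STA hashtag of experiment 1 (adjusted p = 0.0569 and 0.0525, edgeR) and without the experiment term (adjusted p = 0.245, edgeR).

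Ccn2 stood at 261 and 232 CPM in healthy hashtags, at 158 CPM in the STA hashtag of experiment 1 and at 476 and 390 CPM in mild and severe STA. It was thus lower than healthy in experiment 1, with a log2 ratio of -0.72, and higher in experiment 2, with log2 ratios of 1.04 and 0.75. Over both experiments the log2 fold change was 0.19 (SE 0.345, adjusted p = 0.728, edgeR). Without the healthy hashtag of experiment 2 it reversed to -0.72 (adjusted p = 0.0458, edgeR), and without the healthy or the STA hashtag of experiment 1 it was called higher, at 0.90 (adjusted p = 0.0330 and 0.0315, edgeR). The Lining class gave 58.2% of the Ccn2 UMIs of the experiment 1 healthy hashtag and 13.2% in experiment 2. That hashtag also held 20.3% of its UMIs in Lining cells, against 1.71 to 6.27% in the other 5, and its 5 lining markers summed to 25263 CPM against 3571 to 9113. With the Lining class left out, an alternative chosen after seeing the data, the log2 fold change of Ccn2 was 0.59 (adjusted p = 0.0711, edgeR). Per class, the log2 ratios (experiment 1, mild, severe) were -1.15, 0.88 and 0.75 in Mmp3+ and -0.98, 0.27 and 0.32 in Lining. They were 1.04, 0.39 and -0.73 in Il6+, -0.24, -0.31 and -0.06 in Pi16+, and 0.93, -0.12 and -0.88 in Cd200+. Healthy class levels with the STA class shares gave 0.25, 0.38 and 0.29, and the remainder, from levels, was -0.97, 0.65 and 0.45. The part of the Lining share was not tested.

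Genes of tissue dissociation and the immediate early response can move Ccn1 and Ccn2 during cell isolation. Of 26 such genes 8 fell, 1 rose and 17 were not called, the median log2 fold change being -0.35 beside 0.02 for all genes. Klf4 fell by 0.92, Atf3 by 0.76 and Junb by 0.67 on the log2 scale (adjusted p = 0.00662, 0.00792 and 0.0112, edgeR). Their summed level was 21404 and 27452 CPM in healthy and 14572, 22338 and 23999 CPM in STA hashtags. Their part in the Ccn1 and Ccn2 values was not tested. The Y-linked Ddx3y stood at 0.170 CPM in the mild hashtag and at 28.5 to 59.0 CPM in the other 5, while Xist, which female cells express, stood at 815 CPM in the mild hashtag and at 243 to 531 CPM in the others. Without the mild hashtag the same 6 members were called, with log2 fold changes of 2.70 for Tnc, 2.03 for Postn, 3.71 for Cthrc1, 1.63 for Thbs2, 0.63 for Ccn1 and -2.40 for Ccn3.

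Because the Mmp3+ class grew from a few percent of healthy fibroblasts to the largest class in each STA hashtag, the sums mix a change of class shares with a change within classes. In STA hashtags Mmp3+ cells held 91.4 to 97.9% of the Cthrc1 UMIs, 80.4 to 91.6% of Thbs2, 79.2 to 88.4% of Postn and 74.4 to 89.5% of Tnc. They held 59.0 to 80.2% of all UMIs there. With the Mmp3+ class left out, an alternative chosen after seeing the data, only Ccn3 of the 10 was called (log2 fold change -1.64, adjusted p = 0.0178, edgeR) and the count over all genes fell from 2475 to 120. Tnc then had 2.82 (adjusted p = 0.0625), Cthrc1 2.78 (adjusted p = 0.0597) and Postn 1.08 (adjusted p = 0.0783, edgeR). Thbs2 had 0.41 and Ccn1 0.29 (adjusted p = 0.280 and 0.469, edgeR).

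**Figure D2:**
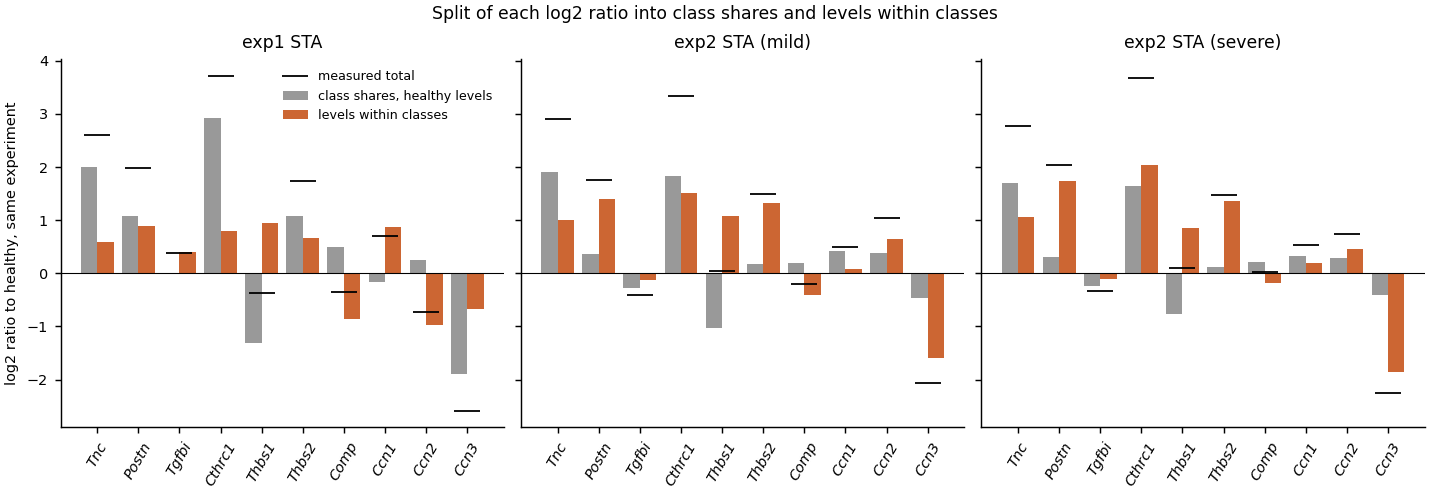
Log2 ratio of each gene to the healthy hashtag of the same experiment (vertical axis) in the 3 STA hashtags. The black tick is the measured ratio, and the grey bar the ratio that healthy class levels with the STA hashtag's class shares would give. The orange bar is the remainder, the change of levels within classes at the STA hashtag's shares. Grey is the taller bar for Tnc in all 3 panels, and orange for Postn and Thbs2 in both experiment 2 panels.

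The split was computed for each STA hashtag by combining the healthy class levels with that hashtag's class shares. For Tnc the shares alone gave log2 ratios of 2.01, 1.90 and 1.70 (experiment 1, mild, severe), and the levels within classes gave 0.60, 1.01 and 1.07. For Postn the shares gave 1.08, 0.36 and 0.31 and the levels 0.89, 1.40 and 1.73. Split in this order, the larger part of the Tnc ratio went with class shares in every STA hashtag. For Postn the larger part lay within classes in experiment 2 only. The parts depend on the order, and the other order, STA levels with healthy shares, was not computed. Cthrc1 had 2.92, 1.82 and 1.64 from shares and 0.80, 1.51 and 2.03 from levels. Thbs1 had the parts of opposite sign, with -1.32, -1.03 and -0.76 from shares and 0.95, 1.07 and 0.86 from levels. Its totals thus held a positive part from levels, summed over classes, beside a move of cells into classes with less of it. The level did not rise in every class. Thbs1 was higher in Mmp3+, Il6+ and Cd200+ cells of each STA hashtag. In Pi16+ cells it went from 339 to 395 CPM in experiment 1 and from 572 to 292 and 286 CPM in experiment 2. In Lining cells it fell from 206 to 27.0 CPM in experiment 1. In experiment 2 it fell there from 96.8 to 10.8 and 48.2 CPM, on 6, 13 and 19 cells. Ccn3 had negative parts from both, -1.90, -0.46 and -0.40 from shares and -0.68, -1.60 and -1.86 from levels. The healthy Mmp3+ levels behind these values rest on 10 cells in experiment 1 and 29 in experiment 2.

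**Figure D3:**
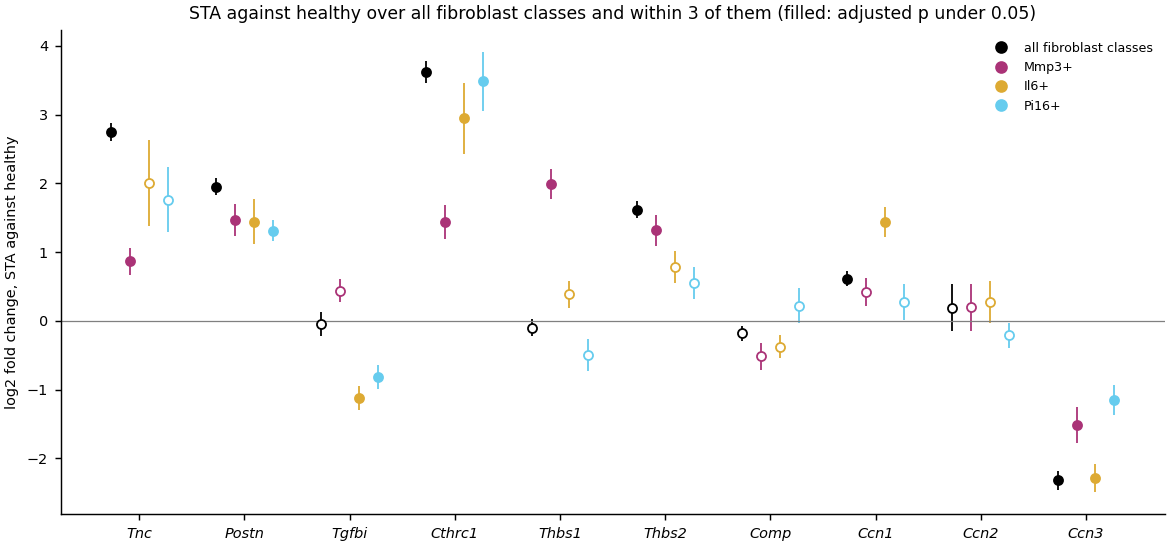
Log2 fold change between STA and healthy (vertical axis, points) with its SE (bars) for each gene, over all 5 classes in black and within Mmp3+, Il6+ and Pi16+ in colour; filled points passed an adjusted p of 0.05 (edgeR). Postn, Cthrc1 and Ccn3 are filled in all 4 sets, and Tgfbi lies below 0 in Il6+ and Pi16+ and above 0 in Mmp3+.

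Within single classes the comparison asks what changed among cells of the same name. Il6+ and Pi16+ had at least 20 cells in every hashtag. In Il6+ cells Postn, Cthrc1 and Ccn1 rose and Tgfbi and Ccn3 fell, 5 of 10 beside 2.52% of 7946 genes tested; 6 members had hashtags apart between the groups, beside 28% of genes. In Pi16+ cells Postn and Cthrc1 rose and Tgfbi and Ccn3 fell, 4 of 10 beside 0.755% of 9137 genes; 4 members had groups apart, beside 19.9%. These calls rest on the experiment term: without it no member passed in either class, and 2 genes in Il6+ and 0 in Pi16+ passed over all genes.

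Postn stood in Il6+ cells at 262 and 624 CPM in healthy and 1646, 758 and 1431 CPM in STA hashtags, a log2 fold change of 1.45 (SE 0.328, adjusted p = 0.0301, edgeR). In Pi16+ cells it stood at 810 and 521 CPM in healthy and 2146, 1119 and 1362 CPM in STA hashtags, with 1.31 (SE 0.155, adjusted p = 0.00157, edgeR). Each STA hashtag lay above both healthy ones in both classes. The Il6+ call ended without the healthy hashtag of experiment 1 (0.73, adjusted p = 0.0649, edgeR).

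Cthrc1 was low in healthy cells of both classes, at 10.9 and 15.3 CPM in Il6+ and 44.9 and 13.4 CPM in Pi16+. In STA it stood at 221, 22.0 and 77.4 CPM in Il6+ and at 704, 38.4 and 122 CPM in Pi16+. The mild hashtag was the lowest STA value in both classes and in Pi16+ overlapped the healthy range. The log2 fold changes were 2.95 (SE 0.512, adjusted p = 0.00693) in Il6+ and 3.48 (SE 0.424, adjusted p = 0.00162) in Pi16+ (edgeR).

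Tgfbi, which was not called in the sum, fell within both classes. In Il6+ cells it went from 441 and 552 CPM to 193, 281 and 303 CPM, by 1.12 (log2; SE 0.170, edgeR adjusted p = 0.00287). In Pi16+ cells it went from 569 and 635 CPM to 265, 452 and 394 CPM, by 0.82 (SE 0.170, adjusted p = 0.0461, edgeR). The groups did not overlap in either class. The Pi16+ call ended without the healthy or the STA hashtag of experiment 1 (adjusted p = 0.252 and 0.237) and without the healthy hashtag of experiment 2 (adjusted p = 0.0602, edgeR).

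Ccn3 fell in Il6+ cells from 220 and 441 CPM to 51.0, 67.4 and 112 CPM, by 2.29 (log2; SE 0.205, edgeR adjusted p = 4.06e-05). In Pi16+ cells, where it was highest, it fell from 566 and 730 CPM to 248, 446 and 235 CPM, by 1.16 (SE 0.217, adjusted p = 0.0306, edgeR). The groups were apart in both classes, and the Pi16+ call ended without the healthy hashtag of experiment 2 (adjusted p = 0.139, edgeR). Ccn1 stood in Il6+ cells at 62.5 and 105 CPM in healthy and 226, 216 and 305 CPM in STA hashtags, a log2 fold change of 1.44 (SE 0.216, adjusted p = 0.00287, edgeR).

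Mmp3+ had 10 healthy cells in experiment 1, so its fit, with a minimum of 10 cells, was added after seeing the data. There Tnc, Postn, Cthrc1, Thbs1 and Thbs2 rose and Ccn3 fell, 6 of 10 beside 4.52% of 11327 genes, and 7 members had groups apart, beside 36.4%. Thbs1 stood at 72.4 and 134 CPM in healthy and 209, 477 and 555 CPM in STA hashtags, a log2 fold change of 1.99 (SE 0.218, adjusted p = 0.000224, edgeR). The STA hashtags were all above the healthy ones, and the severe and mild ones highest. Postn had 1.46 (adjusted p = 0.00325), Cthrc1 1.44 (adjusted p = 0.00552), Thbs2 1.32 (adjusted p = 0.00473) and Tnc 0.87 (adjusted p = 0.0237, edgeR). Ccn3 had -1.51 (adjusted p = 0.00523, edgeR), from 44.5 and 362 CPM in healthy to 41.6, 83.0 and 89.7 CPM in STA hashtags, which overlap. Without the healthy hashtag of experiment 2 no member was called, Ccn3 turned to 0.06 and 35 genes passed in all, and without the experiment term no member and 60 genes passed. The Tnc call also ended without the experiment 1 or the severe STA hashtag (adjusted p = 0.0598 and 0.0905, edgeR). In Cd200+, with 10 to 31 cells per hashtag, no member passed, beside 0 of 3100 genes and 233 (7.52%) at an unadjusted p under 0.05 (edgeR).

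Whether the effect of STA itself differed between classes was tested in a fit over the sums of Mmp3+, Il6+ and Pi16+, also added after seeing the data. The change of Tgfbi was higher in Mmp3+ than in Il6+ by 1.54 (log2; SE 0.226, edgeR adjusted p = 0.00744), beside 0.407% of 10073 genes called. It was higher in Mmp3+ than in Pi16+ by 1.23 (SE 0.224, adjusted p = 0.0279, edgeR), beside 0.486% of genes. In Mmp3+ itself Tgfbi stood at 401 and 421 CPM in healthy and 562, 450 and 485 CPM in STA hashtags, apart but not called (0.44, adjusted p = 0.198, edgeR). The change of Thbs1 was higher in Mmp3+ than in Pi16+ by 2.51 (SE 0.394, adjusted p = 0.0136, edgeR). Leaving out 1 hashtag at a time kept the first Tgfbi difference at adjusted p of 0.0276 to 0.0363, took the second to 0.132 without the healthy hashtag of experiment 1, and took Thbs1 to 0.556 without that of experiment 2. No member was called between Il6+ and Pi16+, beside 0.00993% of genes, and the other members' differences were not called in any of the 3 contrasts.

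**Figure D4:**
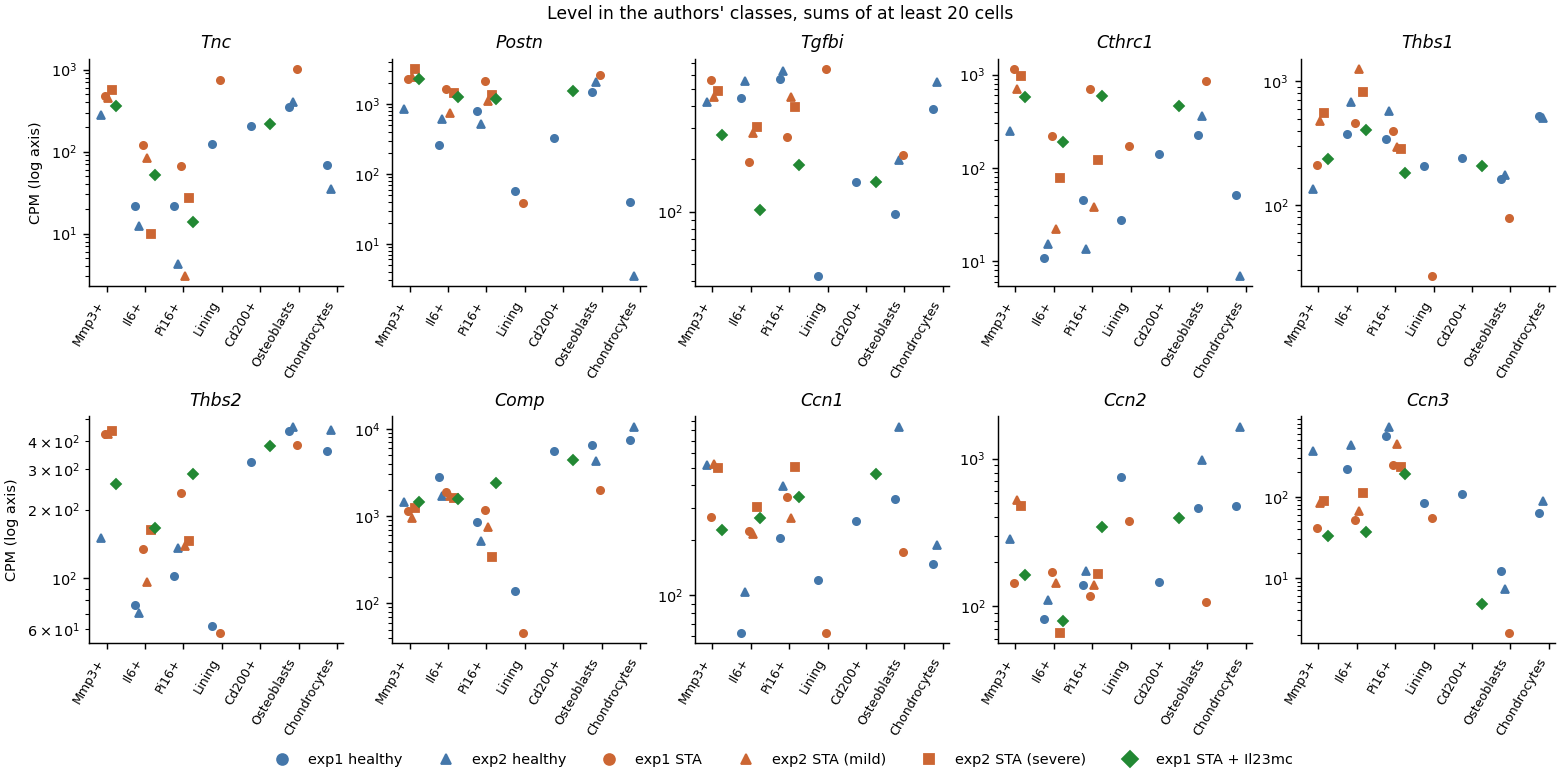
Level of each gene (CPM, logarithmic axis) in the authors' 7 classes, 1 point per hashtag with at least 20 cells of the class; colour gives the condition and shape the experiment and severity. Comp is lowest in Lining and highest in Chondrocytes, and Ccn3 is highest in Pi16+.

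Where the 10 genes were expressed among classes is given as a description, because the classes were made from the same cells. Means are over hashtags with at least 20 cells of a class (Il6+ and Pi16+ 6, Mmp3+ 5, Osteoblasts 3, the others 2), with their SD, and these hashtags differ in condition between classes. The genes fell into several patterns. Comp was highest in Chondrocytes (8955 ± 2243 CPM), then Cd200+ (5031 ± 851) and Osteoblasts (4286 ± 2274), which overlapped. Il6+ (1882 ± 469) stood apart from Mmp3+ (1242 ± 216), while Pi16+ (1003 ± 741) overlapped both, and Lining (92.7 ± 66.2) stood lowest and apart.

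Tnc was highest in Osteoblasts (586 ± 366 CPM), Lining (433 ± 437) and Mmp3+ (428 ± 112), whose ranges overlapped. Cd200+ (213 ± 7.64) lay within the Lining range, apart from Osteoblasts and Mmp3+ above and from Chondrocytes (51.8 ± 23.7), Il6+ (49.5 ± 44.0) and Pi16+ (22.8 ± 23.6) below. In Cd200+ hashtags with fewer cells Tnc ran from 21.2 CPM (healthy, experiment 2) to 259 CPM (severe). In Lining cells Tnc stood at 124 CPM in healthy and 742 CPM in STA cells of experiment 1, on 49 and 54 cells. In experiment 2 the Lining values of 229 (healthy), 1455 (mild) and 501 CPM (severe) rest on 6, 13 and 19 cells. Both experiments thus had more Tnc in STA than in healthy Lining cells, with no test at these cell numbers.

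Postn was highest in Mmp3+ (2220 ± 837 CPM) and Osteoblasts (2091 ± 557), followed without a gap by Pi16+ (1191 ± 555), Il6+ (1000 ± 534) and Cd200+ (935 ± 858), and apart from Lining (48.2 ± 13.3) and Chondrocytes (21.7 ± 25.8). Cthrc1 ran from Mmp3+ (728 ± 346 CPM) over Osteoblasts (483 ± 333), Cd200+ (301 ± 224), Pi16+ (251 ± 309), Lining (99.5 ± 102) and Il6+ (89.5 ± 93.6) to Chondrocytes (29.2 ± 31.4), each overlapping the next. Thbs2 was even across Osteoblasts (430 ± 40.1 CPM), Chondrocytes (404 ± 62.4), Cd200+ (352 ± 39.2) and Mmp3+ (342 ± 131), then lower in Pi16+ (174 ± 71.3) and Il6+ (118 ± 42.8), and lowest and apart in Lining (59.7 ± 3.00). Postn and Thbs2 thus both stood low in Lining cells, unlike Tnc.

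Tgfbi ran from Chondrocytes (466 ± 118 CPM), Mmp3+ (438 ± 107), Pi16+ (417 ± 173), Lining (345 ± 427) and Il6+ (312 ± 163) to Osteoblasts (168 ± 62.2) and Cd200+ (147 ± 0.101), each overlapping the next. Osteoblasts (highest 211 CPM) and Cd200+ (147) still lay below the lowest values of Mmp3+ (272) and Chondrocytes (383). In Cd200+ hashtags with fewer cells Tgfbi ran from 31.4 CPM (mild) to 196 CPM (severe). In Lining cells Tgfbi stood at 43.2 CPM in healthy and 647 CPM in STA cells of experiment 1, and at 273, 255 and 436 CPM in healthy, mild and severe hashtags of experiment 2. Thbs1 ran from Il6+ (665 ± 334 CPM) over Chondrocytes (514 ± 8.63), Pi16+ (344 ± 132), Mmp3+ (323 ± 183) and Cd200+ (225 ± 23.5) to Osteoblasts (139 ± 51.7) and Lining (116 ± 126), with Cd200+ and Osteoblasts the only neighbours apart.

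Of the CCN genes, Ccn3 was highest in Pi16+ (403 ± 215 CPM), followed by Il6+ (155 ± 155), Mmp3+ (122 ± 137), Chondrocytes (75.2 ± 17.5), Lining (70.1 ± 20.9) and Cd200+ (56.4 ± 73.0), and nearly absent from Osteoblasts (7.14 ± 4.99), with overlap at every step. Ccn2 was highest in Chondrocytes (1059 ± 819 CPM), Lining (563 ± 259) and Osteoblasts (513 ± 434), then Mmp3+ (320 ± 177), Cd200+ (270 ± 174), Pi16+ (181 ± 83.9) and Il6+ (109 ± 41.0), also overlapping at every step. Ccn1 ran from Osteoblasts (450 ± 346 CPM) over Mmp3+ (406 ± 145), Cd200+ (357 ± 145), Pi16+ (344 ± 104) and Il6+ (196 ± 93.9) to Chondrocytes (169 ± 28.7), and Lining (91.6 ± 41.4), which was apart from Chondrocytes but overlapped Il6+. Ccn1 and Ccn2 thus differed in their leading classes.

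Shares of cells with a UMI were compared after thinning each cell to 4000 UMIs, which left out 11 to 56 cells per hashtag. Cthrc1 was seen in 10.5 and 5.51% of healthy fibroblasts and 70.8, 38.2 and 41.2% of STA fibroblasts (17.6 and 13.8% against 81.4, 51.6 and 52.1% unthinned). Tnc was seen in 11.4 and 5.91% against 52.5, 31.6 and 30.3%, and Ccn3 in 48.6 and 53.5% against 13.5, 21.0 and 23.8% (thinned). Tnc and Cthrc1 were carried by few healthy cells: the 10% of cells with most UMIs held 93.1 and 98.2% of healthy Tnc UMIs and 87.9 and 93.4% of Cthrc1, against 47.3 to 71.1% and 40.3 to 58.8% in STA hashtags. These last shares are of unthinned counts. Healthy hashtags held 246 and 171 Tnc UMIs, against 2433 to 7241 in STA, at a lower depth per cell. The part of depth in this contrast was not tested.

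As a measure of free RNA, the same shares were taken in barcodes outside the authors' table that carried leukocyte genes (28 in experiment 1 and 210 in experiment 2, of which 16 and 171 reached 4000 UMIs; median depths 6014 and 9230 UMIs). Tnc was seen in 6.25 and 3.51% of these and in 4.82% of all Pi16+ cells (median depth 8786 UMIs). The Pi16+ share over all hashtags was thus not told apart from background. The STA hashtag of experiment 1, at 14.9% of Pi16+ cells, stood above both leukocyte shares. In Mmp3+ cells (median depth 20569 UMIs) Tnc was seen in 56.3%. Postn was seen in 18.8 and 7.02% of leukocyte barcodes, 78.3% of Mmp3+ and 10.5% of Lining cells. The Lining share lay between the leukocyte shares and was likewise not told apart from background. Cthrc1 was seen in 12.5 and 3.51% of leukocyte barcodes and in 10.5 and 5.51% of healthy fibroblasts, so part of the healthy share may be background. The experiment 1 shares rest on 16 leukocyte barcodes, too few to place any share of fibroblasts firmly against them. Healthy Mmp3+ cells stood at 696 and 246 CPM of Cthrc1 (10 and 29 cells), and leukocyte barcodes at 8.26 and 13.3 CPM. Thbs1 and Tgfbi stood at 1793 and 851 CPM in the 28 leukocyte barcodes of experiment 1, above the fibroblast sums, and at 187 and 59.3 CPM in the 210 of experiment 2, below them. Leukocyte markers were nearly absent from the fibroblast sums themselves, at 10.6 to 30.7 CPM over 7 macrophage and neutrophil genes and 0 to 16.1 CPM over 6 lymphocyte genes, with Cd3e at 0 in every hashtag.

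The addition of Il23mc to STA was compared between 1 hashtag and 1 in experiment 1, so there is no test, and intervals cover counting error only. In the summed classes the median log2 ratio over all genes with at least 50 UMIs was -0.24, and ratios of these sums are to be read against it. No such median was computed within single classes. Tgfbi had the lowest ratio of the members, with 239 CPM in STA + Il23mc and 516 CPM in STA, a log2 ratio of -1.11 (95% interval -1.16 to -1.05). It was the only member past 2-fold, 1 of 10 beside 4.02% of 10812 genes, and on TMM-scaled values, at -0.86, it was no longer past 2-fold. Cthrc1 followed with 514 and 984 CPM (-0.94, interval -0.97 to -0.90), Thbs2 with 245 and 377 CPM (-0.62), Ccn3 with 38.6 and 56.0 CPM (-0.54) and Tnc with 302 and 436 CPM (-0.53). Comp was higher, at 1506 and 1192 CPM (0.34, interval 0.31 to 0.36). Postn (-0.04), Ccn1 (-0.12), Ccn2 (0.04) and Thbs1 (0.14) were closer to equal in CPM and lay above the median of -0.24. On TMM-scaled values Postn and Ccn1 turned to 0.21 and 0.13.

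Within classes the Tgfbi ratio was -1.05 in Mmp3+, -0.91 in Il6+, -0.51 in Pi16+ and -2.92 in Lining (17 and 54 cells). In Cd200+ it was 0.42 (interval -0.42 to 1.28) on 31 and 22 UMIs. Past 2-fold were 1 member in Mmp3+ (Tgfbi, beside 4.22% of genes), 2 in Il6+ (Tnc at -1.22 and Ccn2, beside 4.02%) and 4 in Pi16+ (Tnc at -2.28 on 8 and 60 UMIs, Thbs1 at -1.12, Comp and Ccn2, beside 5.41%). The Cthrc1 ratio was -0.97 in Mmp3+ and nearer to 0 in Il6+ (-0.22) and Pi16+ (-0.27). Ccn2 went opposite ways, with 79.4 CPM in STA + Il23mc and 170 CPM in STA Il6+ cells (-1.10) and 347 and 118 CPM in Pi16+ cells (1.56). Comp in Pi16+ cells stood at 2401 and 1162 CPM (1.05).

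Severe and mild STA of experiment 2, again 1 hashtag each, with Ddx3y at 41.7 and 0.170 CPM and Xist at 478 and 815 CPM, were close for all 10 genes in the summed classes. No member was past 2-fold, beside 1.83% of 9549 genes, and the median log2 ratio of all genes was 0.02. The highest ratio was that of Cthrc1, with 622 CPM in severe and 493 CPM in mild STA (0.34, interval 0.27 to 0.40), and the lowest that of Ccn2, with 390 and 476 CPM (-0.29, interval -0.36 to -0.21). Within classes 0 members of Mmp3+ (beside 1.79% of genes), 3 of Il6+ (Tnc, Cthrc1 and Ccn2, beside 2.62%) and 2 of Pi16+ (Cthrc1 and Comp, beside 2.65%) were past 2-fold among genes with at least 50 UMIs. Cthrc1 was higher in severe STA within Mmp3+ (965 and 708 CPM, 0.45), Il6+ (77.4 and 22.0 CPM, 1.81) and Pi16+ cells (122 and 38.4 CPM, 1.67). Tnc went opposite ways in Il6+ (16 UMIs in severe and 60 in mild, -3.05) and Pi16+ cells (32 and 2 UMIs, 3.15), on few UMIs and in Pi16+ under that minimum. Ccn2 in Il6+ cells stood at 66.2 and 144 CPM (-1.13) and Comp in Pi16+ cells at 336 and 755 CPM (-1.17).

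**Figure D5:**
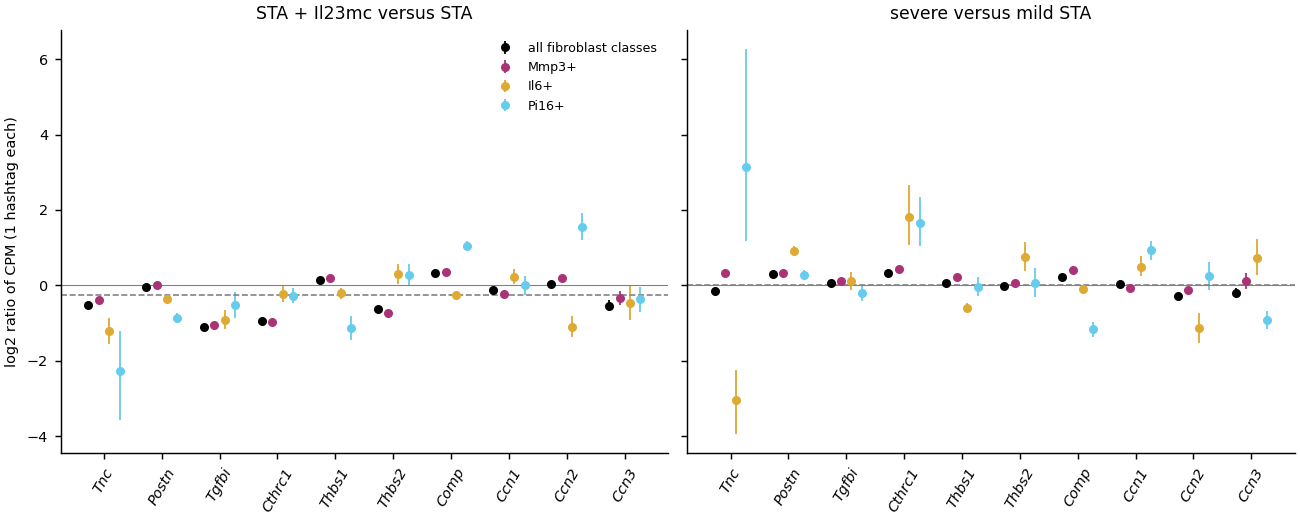
Log2 ratio of CPM for STA + Il23mc against STA (left) and severe against mild STA (right), 1 hashtag on each side, over all 5 classes and within 3 of them. Bars are 95% counting intervals. The dashed line is the median of all genes in the sum of the 5 classes (-0.24 left, 0.02 right), not a median within a class. Tgfbi lies below the dashed line in every set on the left, and Tnc in Il6+ and Pi16+ has the widest intervals on the right.

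Other genes of the same biology were followed as lists in the comparison of STA and healthy sums, described by counts beside the median log2 fold change of 0.02 over all genes. Of 24 tested matrix partners of these proteins 13 rose, 1 fell and 10 were not called, the median being 0.91. Col12a1, a fibril-associated collagen, rose by 1.98 (adjusted p = 0.000584), Lox, which crosslinks collagen and is activated with the help of periostin, by 1.92 (adjusted p = 0.000834) and Col11a1 by 2.61 (adjusted p = 0.000979, edgeR). Of 24 tested other matricellular genes 12 rose, 5 fell and 7 were not called, the median being 0.54. Tnn, the tenascin-W gene, rose from 26.9 and 24.2 CPM to 221, 120 and 144 CPM (2.75, adjusted p = 0.000800, edgeR). Thbs4, the tendon thrombospondin, rose from 213 and 158 CPM to 1184, 691 and 965 CPM (2.45, adjusted p = 0.000806), and Bgn, biglycan, by 1.26 (adjusted p = 0.000965, edgeR).

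Tendon cell markers moved with these genes: all 6 (Tnmd, Scx, Mkx, Kera, Fmod and Thbs4, of which Fmod and Thbs4 stand in the lists above) rose, and their sum was 422 and 365 CPM in healthy and 1843, 1127 and 1493 CPM in STA hashtags. Of 8 chondrocyte markers 4 rose and 1 fell, with sums of 201 and 277 CPM in healthy and 446, 402 and 514 CPM in STA hashtags. Of 6 tested osteoblast markers 1 rose and 4 fell, with sums of 325 and 153 CPM against 74.1, 122 and 78.8 CPM. All 4 tested skeletal muscle markers fell, from 46.4 and 67.4 CPM to 24.2, 30.6 and 32.6 CPM. The part of these markers in the values of Tnc, Postn, Cthrc1 and Thbs2 was not tested. Of 24 tested receptors 3 rose, 5 fell and 16 were not called, the median being -0.12. Sdc1, syndecan 1, rose by 1.48 (adjusted p = 0.00384), the integrin chain Itgb3 fell by 1.5 (adjusted p = 0.00190) and Itga9, a tenascin-C receptor chain, fell by 1.06 (adjusted p = 0.00553, edgeR).

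The genes listed for pathways that induce several members were called in both directions. The TGF-beta list mixes ligands, receptors and feedback genes, so its counts do not measure pathway activity, which was not tested. Of 22 genes of TGF-beta ligands, receptors and feedback 5 rose, 7 fell and 10 were not called, the median being -0.37. Ltbp4, which tethers latent TGF-beta, fell from 797 and 1114 CPM to 77.1, 239 and 218 CPM (-2.74, adjusted p = 0.00161, edgeR), while the TGF-beta target Pmepa1 rose by 0.80 (adjusted p = 0.00823, edgeR). Of 22 tested YAP/TAZ targets, Ccn1 and Ccn2 left out, 5 rose, 5 fell and 12 were not called, the median being -0.17. Nt5e rose by 1.09 (adjusted p = 0.00662), and Axl and Asap1 fell by 1.22 and 1.00 (adjusted p = 0.00562 and 0.00496, edgeR).

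The genes whose pattern was most like that of a member were named by Pearson's r of log2(CPM + 1) over 17 sums of a class and hashtag with at least 50 cells, among 5606 genes with a mean of at least 20 CPM. The sums share wells and differ in depth. They hold Il6+ and Pi16+ of every hashtag, Mmp3+ of the STA hashtags only and Lining of the experiment 1 STA hashtag only. Cd200+, Osteoblasts, Chondrocytes and healthy Mmp3+ cells are not among them. For Tnc the most alike genes were Sec61g (0.94), Nt5dc2 (0.93) and the CCN gene Ccn4 (0.93). Postn was most like Mfap2, Col1a2 and Lhfpl2 (0.93 to 0.94), and Cthrc1 most like Erp29, Creb3 and C1qtnf6 (0.92 to 0.94). Thbs1 was most like Aoc3, Il15ra and Bicc1 (0.89 to 0.90), Thbs2 most like Ddah1, Grb10 and Neo1 (0.89 to 0.91), Comp most like Slc1a3, Fgf7 and Spon1 (0.91 to 0.94) and Tgfbi most like Ndufa1, Tob1 and Adgrg2 (0.87 to 0.91). Ccn1 was most like Bmp1, Ltbr and Fstl1 (0.90 to 0.92) and Ccn3 most like Camk1d, Tmod3 and Lpar1 (0.93 to 0.96). Ccn2 had no close match, with Supt6, Snd1 and Akt1s1 at 0.80 to 0.81. Among the members themselves Cthrc1 and Thbs2 (0.81), Postn and Thbs2 (0.80) and Postn and Ccn1 (0.79) were most alike, and Tnc and Ccn3 most opposed (-0.77).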

How the data were processed

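Single-cell 3-prime libraries of 2 fibroblast wells (1 RNA matrix per experiment) were analysed. The deposited matrices hold raw UMI counts per gene and barcode, made by the authors on mm10 with Cell Ranger; its version is 6.1.2 per the file headers, whereas the submitters' processing notes name 6.0.6. The hashtag call, condition and class of each cell came from the authors' deposited table; the tools and thresholds behind that table are not given in the sources used here, so doublets were treated as the authors treated them. Of 10728 barcodes the table lists 3551, of which 3548 matched a barcode. Wells were hyper-loaded per the labels, 4 barcodes occurred in both and none of these was kept. Another 10 columns of that table were not used.

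Counts were summed per hashtag over 5 classes, or per class with at least 20 cells in every hashtag. Sums of 3 STA and 2 healthy hashtags entered edgeR 4.0.16 (R 4.3.3; quasi-likelihood test, TMM factors, filterByExpr, experiment term, Benjamini-Hochberg adjustment over all genes tested, threshold 0.05). All 10 members passed the filter in every fit. The procedure was tested on simulated data. The experiment is the well that healthy and STA hashtags shared. Deviations from the group means of hashtags in the same well correlated at 0.443 (experiment 1), 0.316 (mild) and 0.275 (severe) with the healthy hashtag. Between mild and severe the correlation was -0.108. Deviations of the 2 healthy hashtags mirror each other by construction and those of the 3 STA hashtags are tied together, so these values are not independent. Comparisons of 1 hashtag with 1 use CPM with 95% exact binomial counting intervals and genes with at least 50 UMIs in either hashtag; intervals cover counting error only. Alternatives used DESeq2 1.42.0 and limma 3.58.1. Thinning, shares and likeness used pandas 2.3.3, numpy 2.4.6 and scipy 1.17.1 under Python 3.11.15; figures used matplotlib 3.10.9. Sequences are RefSeq promoters and positions GENCODE M21.

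All 10 members are named. Of each list the 3 genes with the smallest p are named, and for each member the 3 most alike genes. A gene that the rule names in 1 list is not reported here. The members and lists were chosen with earlier results of these data known.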

Additional observations from a re-analysis of the deposited data

Results flagged for a closer look

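For 3 members the log2 ratio of STA to healthy had opposite signs in experiments 1 and 2, and these differences were not tested. Ccn2 had a log2 ratio of -0.72 in experiment 1 and 1.04 and 0.75 in mild and severe STA of experiment 2. Thbs1 had -0.37 against 0.04 (95% counting interval -0.05 to 0.13) and 0.09, both close to 0. Tgfbi had 0.37 against -0.41 and -0.34. The share of Lining cells, the level of immediate early genes and the depth of healthy cells also differed between the experiments, and their part in these values was not tested.

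The effect of STA differed between classes for 2 members by a test of the difference itself (edgeR, residual degrees of freedom 4). For Tgfbi it was higher in Mmp3+ by 1.54 than in Il6+ and by 1.23 than in Pi16+ on the log2 scale (adjusted p = 0.00744 and 0.0279, edgeR). For Thbs1 it was higher in Mmp3+ than in Pi16+ by 2.51 (adjusted p = 0.0136, edgeR). The Tgfbi difference from Pi16+ was not called without the healthy hashtag of experiment 1 (adjusted p = 0.132, edgeR), nor that of Thbs1 without the healthy hashtag of experiment 2 (adjusted p = 0.556, edgeR). Each rests on the 10 healthy Mmp3+ cells of experiment 1 and the 29 of experiment 2.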

How the results depend on the processing

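The summed comparison had 6 called members with DESeq2, library totals, no filter on low counts and without the Lining class. It had 6 with Osteoblasts and Chondrocytes added, where Comp gained its call and Ccn1 lost it (0.43, adjusted p = 0.0519, edgeR), 7 with equal class weights (245 genes over all) and 5 with no replicate block, that is without the experiment term (583 genes). Without the Mmp3+ class 1 member and 120 genes remained called. Leaving out 1 hashtag gave 6 to 7 members and 841 to 2113 genes (841 and 911 without the healthy or STA hashtag of experiment 1); Tnc stayed at 2.60 to 2.84, Postn at 1.89 to 2.03, Cthrc1 at 3.51 to 3.72, Thbs2 at 1.49 to 1.75 and Ccn3 at -2.58 to -2.15, while Ccn2 reversed to -0.72. Without the replicate block 0 members were called in Il6+ (2 genes), Pi16+ (0 genes) and Mmp3+ (60 genes). Leaving out 1 hashtag gave 4 to 7 members and 229 to 444 genes in Il6+ (355 without the healthy hashtag of experiment 2), 3 to 5 and 106 to 320 in Pi16+ (116, 120 and 165 between), 0 to 7 and 35 to 527 in Mmp3+ (300 without the STA hashtag of experiment 1), where Ccn3 reversed to 0.063, and 0 to 2 and 0 to 47 in Cd200+ (25 and 42 between). For severe against mild STA, equal class weights gave 1 member past 2-fold (Cthrc1). For STA + Il23mc against STA, TMM-scaled values gave 0 members past 2-fold and turned Postn to 0.21 and Ccn1 to 0.13, and equal class weights turned Thbs1 to -0.69 and Ccn1 to 0.31. With a mean over cells, each scaled to the same depth, 8 of 10 members had the same leading class. The cause of these shifts was not tested. Fits without 1 hashtag leave 4, and in some of them a lone healthy or STA hashtag is assumed to vary like the others. Depth limits Tnc in Pi16+ cells, where the mild hashtag held 2 UMIs.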
